A study of Cavia porcellus with 30 samples.

Results

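Kidney RNA was examined here for 6 protein-coding transcripts of the mitochondrial genome, those of COX1 (ENSCPOT00000017568.1), COX2 (ENSCPOT00000017571.1), ATP8 (ENSCPOT00000017573.1), ATP6 (ENSCPOT00000017574.1), COX3 (ENSCPOT00000017575.1) and CYTB (ENSCPOT00000017587.1). They were chosen by transcript identifier and are 6 of the 13 mitochondrial and 6 of the 25824 transcripts in each table. The tables hold identifiers and no gene names, so the names were inferred: the 13 identifiers ran in the order of the genes on the mitochondrial genome, and the skipped numbers matched the transfer RNA genes that lie between them. The listed lengths did not go against these names, as COX1 was the longest of the 6 at 1542 bases and ATP8 the shortest at 204 bases, and 5 of the 6 lengths were multiples of 3. COX3, at 784 bases, was the exception.

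The respiratory chain of the inner mitochondrial membrane passes electrons to oxygen, and ATP synthase uses the resulting proton gradient to make ATP. Most of their subunits come from nuclear genes, but some subunits of each proton-moving complex are encoded in the mitochondrion itself. COX1, COX2 and COX3 form the core of cytochrome c oxidase (complex IV). ATP6 and ATP8 belong to the membrane part of ATP synthase (complex V), and CYTB is the cytochrome b of complex III. Mitochondrial genes are transcribed as long precursors that are cut at the transfer RNAs, and ATP8 and ATP6 stay together on one messenger RNA with overlapping reading frames. The proximal tubule of the kidney is rich in mitochondria and is the segment that mercuric chloride is known to injure.

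The study asked how the kidney responds to this toxicant. It used 30 male Hartley guinea pigs, bought at 4 weeks of age and fitted with a jugular vein catheter before treatment, in 6 groups of 5 animals. Mercuric chloride was injected into the peritoneum at 1.00 mg/kg (low dose) or 1.50 mg/kg (high dose), and vehicle animals were injected with saline at 1 ml/kg. Kidneys were taken 9 or 33 h after the injection, in both cases in the late afternoon after a daytime fast. Whole kidneys were powdered, so a smaller number of mitochondria-rich cells and less mitochondrial RNA per cell cannot be told apart in these values. The kidney labels could not be checked against marker genes, since identifiers were not paired with symbols.

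Total estimated counts ran from 23134713 to 36072327 per animal, and the 6 transcripts held 4.31% to 8.24% of them. Each of the 6 had between 20900 and 666934 counts in an animal, so counting error was small beside the differences between animals. The trimmed mean (TMM) scaling factor ran from 0.819 to 1.08. The lowest factor was that of vehicle animal 59 at 9 h, where 1 transcript (ENSCPOT00000025542.2) took 13.7% of the counts. The 5 vehicle animals at 9 h were numbered 31, 32 and 58 to 60, while all other groups had consecutive numbers, and the labels do not say whether the later numbers were treated on another day.

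Per unit of length, the 6 were among the most abundant transcripts of the kidney. In TPM, a level scaled to transcript length and library total, they made up between 8.74% and 15.4% of an animal's total, and the 13 mitochondrial transcripts between 13.8% and 24.1%. ATP6 ranked between place 2 and place 5 of all transcripts in every animal, COX3 between 2 and 6, and ATP8 between 4 and 7. COX2 (7 to 12), CYTB (7 to 13) and COX1 (7 to 16) followed. In the 33 h vehicle animals, the mean TPM was 27902 ± 850 for COX3 and 26832 ± 1521 for ATP6 (SD, n = 5), and the ranges of these 2 overlapped. ATP8 came next at 21162 ± 1322, followed by CYTB at 17758 ± 734, COX2 at 17432 ± 704 and COX1 at 16962 ± 375. The ranges of CYTB, COX2 and COX1 overlapped from neighbour to neighbour. The effective length of ATP8, to which its TPM is scaled, was 55.5 to 64.2 bases of its 204, so its place among the 6 leans on that correction more than the place of the longer transcripts does.

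At 33 h after the high dose, all 6 transcripts were lower than in the vehicle animals. COX1, which carries the catalytic centre of complex IV, showed the largest difference of the 6. Its CPM, the count scaled by library total and TMM factor, was 19067, 19507, 19331, 19334 and 18818 in vehicle animals 43 to 47 and 12036, 10118, 11201, 12190 and 12557 in high-dose animals 53 to 57. The groups did not overlap, and the vehicle animals lay within a narrow band (19211 ± 270, SD, n = 5) against 11621 ± 976 in the high-dose animals. COX1 was thereby 39.8% lower, a log2 fold change of -0.73 (SE 0.055; edgeR adjusted p = 3.3e-06).

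COX3 was 33.9% lower. Its CPM was 13196, 14286, 14155, 13609 and 12551 in the vehicle animals and 9615, 7952, 8544, 9230 and 9723 in the high-dose animals, again without overlap (log2 fold change -0.60, SE 0.060, edgeR adjusted p = 2.1e-05). COX2, which takes the electrons from cytochrome c, was 28.8% lower, with 7313, 7215, 7095, 6791 and 6501 CPM in the vehicle and 5466, 4598, 4718, 4987 and 5236 CPM in the high-dose animals (log2 fold change -0.49, SE 0.054, edgeR adjusted p = 3.8e-05). The highest high-dose animal lay below the lowest vehicle animal for each of the 3 complex IV subunits.

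The differences of the complex V transcripts were smaller in the estimate. ATP6, the subunit through which protons enter the rotor, had 11504, 10346, 11368, 10329 and 9871 CPM in the vehicle and 10216, 8249, 8248, 8394 and 8565 CPM in the high-dose animals. High-dose animal 53 stood above the other 4 and inside the vehicle range, and ATP6 was 18.7% lower (log2 fold change -0.30, SE 0.068, edgeR adjusted p = 0.0047). ATP8 had 1153, 1112, 1138, 1065 and 947 CPM in the vehicle and 974, 782, 807, 829 and 809 CPM in the high-dose animals, and the same animal 53 overlapped with vehicle animal 47. ATP8 was 22.8% lower (log2 fold change -0.37, SE 0.071, edgeR adjusted p = 0.0015).

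CYTB of complex III was 28.9% lower. It had 14463, 14121, 14951, 13968 and 12651 CPM in the vehicle and 11161, 8539, 9780, 10272 and 10353 CPM in the high-dose animals, and the groups did not overlap (log2 fold change -0.49, SE 0.069, edgeR adjusted p = 0.00019).

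**Figure D1:**
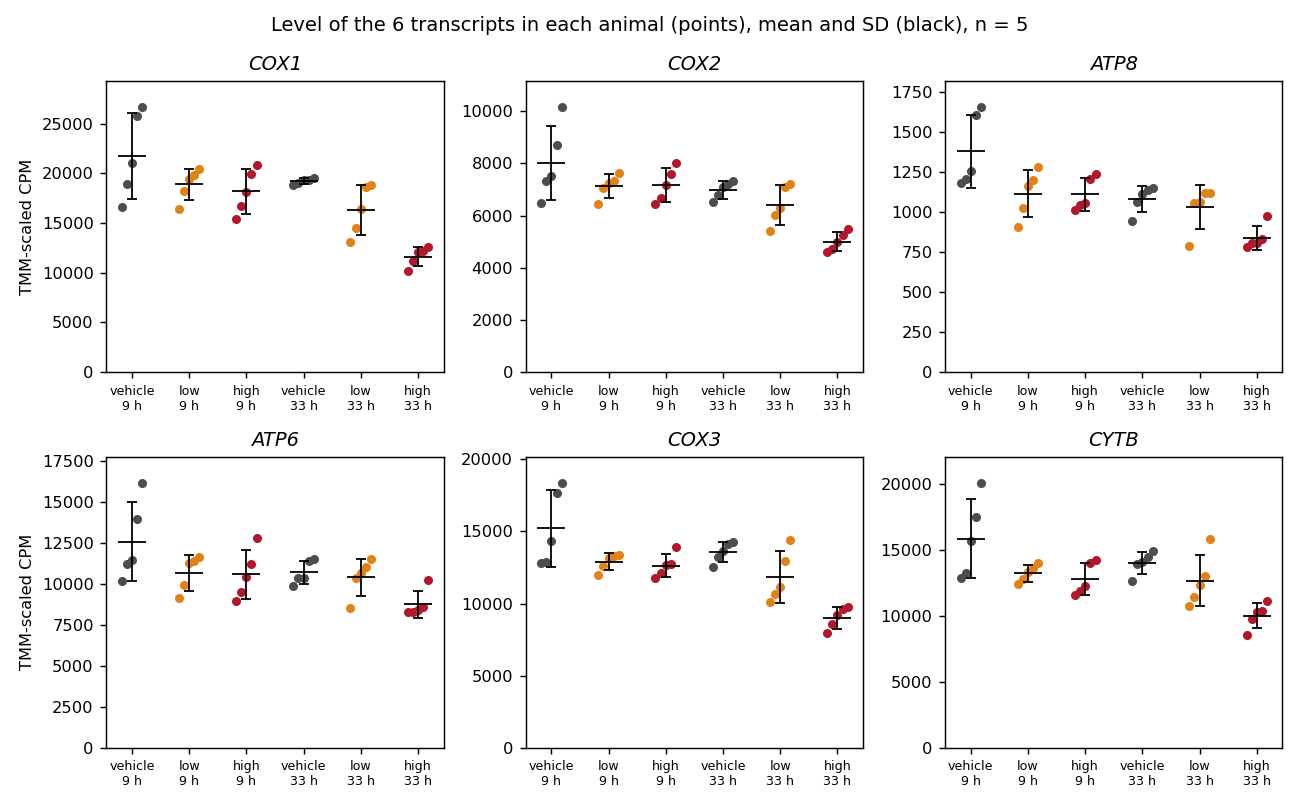
TMM-scaled CPM (vertical axis, from 0) of the 6 transcripts in each animal of the 6 groups (horizontal axis). Points are animals, and the black line and bar are the mean and SD of 5 animals. The high-dose animals at 33 h hold the lowest group mean in every panel, and for COX1 they lie between 10118 and 12557 CPM, below all other animals.

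Thus 6 of 6 transcripts were called lower at an adjusted p of at most 0.1 in edgeR's quasi-likelihood test, in a comparison in which 49.2% of the 19729 transcripts tested were called in either direction and 24.1% were called lower. The median log2 fold change was -0.49 over the 6 and -0.0028 over all transcripts tested. In CPM, the groups did not overlap for 4 of the 6, beside 15.0% of all transcripts that were lower without overlap. In TPM, they did not overlap for any of the 6, beside 13.2% of all transcripts. The 7 other mitochondrial transcripts, which encode subunits of complex I, were also all called lower, with log2 fold changes between -0.69 and -0.38. With library totals in place of TMM factors, the median of all transcripts was 0.10 and the log2 fold change of ATP6 was -0.20. All 6 were still called, beside 50.0% of all transcripts. In limma on log2 TPM, with 48.3% of all transcripts called, the call of ATP6 was lost (log2 fold change -0.26, adjusted p = 0.17).

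**Figure D2:**
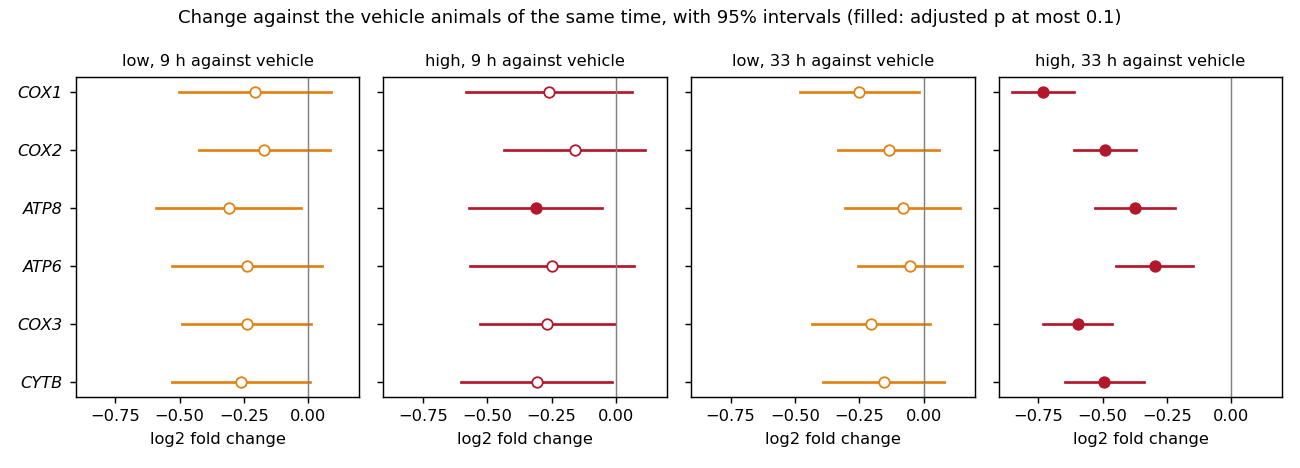
Log2 fold change (horizontal axis) of the 6 transcripts against the vehicle animals of the same time, with 95% intervals from the edgeR fit. Filled points passed an adjusted p of 0.1. All 6 points were filled for the high dose at 33 h, from -0.30 for ATP6 to -0.73 for COX1, and 1 (ATP8) for the high dose at 9 h.

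Within the mitochondrial messenger RNA, the shares of COX1, ATP6 and ATP8 differed between the high-dose and vehicle animals at 33 h. The shares restate the unequal differences above on another scale and are not separate evidence. Shares were calculated from TPM, as the part of each transcript in the sum of the 13 mitochondrial transcripts of the same animal, so they do not depend on library scaling, and they are described without a test. The share of COX1 was 8.36% ± 0.345 in the 33 h vehicle animals and 7.07% ± 0.434 in the high-dose animals (SD, n = 5), with ranges of 7.96% to 8.75% and 6.50% to 7.48%. The share of ATP6 was higher in the high-dose animals, at 15.1% ± 0.606 against 13.2% ± 0.397, with ranges of 14.5% to 15.8% and 12.9% to 13.8%. Neither COX1 nor ATP6 overlapped between the groups. For ATP8 the share was 11.5% ± 0.398 against 10.4% ± 0.433, and the ranges lay next to each other without overlap. The 9 h vehicle animals, however, had an ATP8 share of 11.5% ± 0.596, the 9 h high-dose animals one of 11.4% ± 0.777 and the 9 h low-dose animals one of 10.6% ± 0.864, so the high-dose share at 33 h was within the range of group means seen at 9 h. For COX1 and ATP6, the 9 h vehicle shares (8.28% ± 0.301 and 13.5% ± 0.427) were near those of the 33 h vehicle animals. Of the 7 complex I transcripts, 1 (ND6) did not overlap between the high-dose and vehicle animals at 33 h, at 5.74% to 6.24% against 6.35% to 6.61%. COX2 (8.61% against 8.59%) and CYTB (8.74% against 8.75%) had nearly the same mean share in both groups. COX3 was at 12.8% against 13.8%, with overlapping ranges. The low-dose animals at 33 h lay between the other 2 groups in the mean share of COX1 (7.74% ± 0.338), ATP6 (14.1% ± 0.698), ATP8 (11.3% ± 0.713) and COX3 (13.2% ± 0.715), and overlapped with the vehicle animals for all 6.

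**Figure D3:**
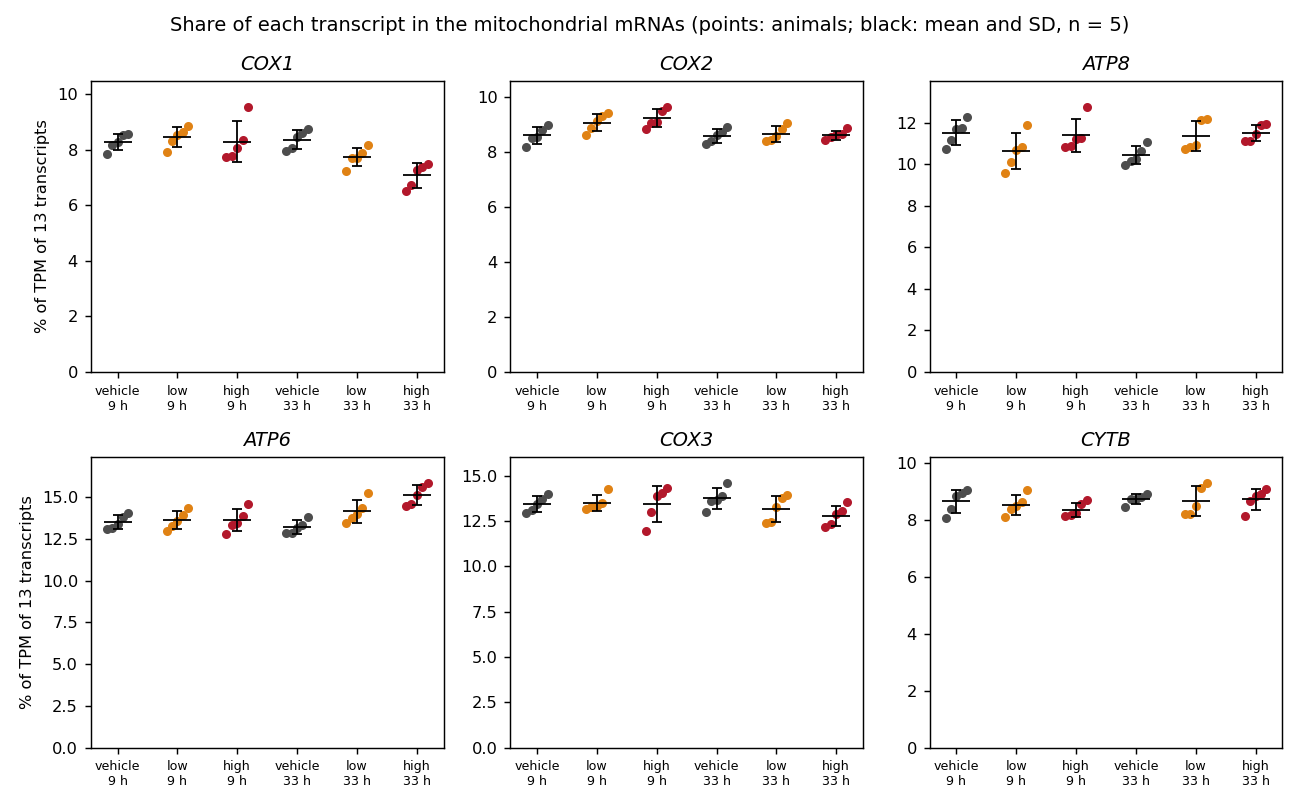
Share of each transcript in the summed TPM of the 13 mitochondrial transcripts of the same animal (vertical axis, percent) in the 6 groups (horizontal axis). Points are animals, and black marks are the mean and SD of 5 animals. In the high-dose animals at 33 h the share of COX1 is below, and the shares of ATP6 and ATP8 are above, the range of the 33 h vehicle animals.

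**Figure D4:**
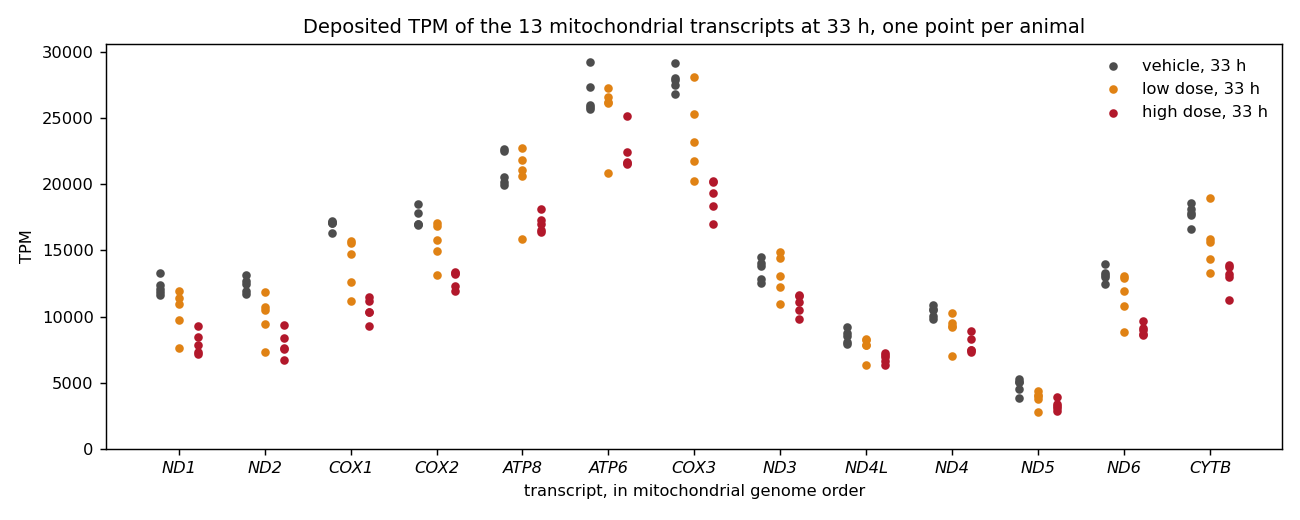
Deposited TPM (vertical axis, from 0) of the 13 mitochondrial transcripts in their order on the genome (horizontal axis), with 1 point for each animal of the 3 groups at 33 h. ATP6 and COX3 reach the highest values, and the high-dose points lie below the vehicle points for all 6 transcripts described here.

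At 33 h after the low dose, none of the 6 passed the test. Their log2 fold changes lay between -0.25 (COX1) and -0.05 (ATP6), with a median of -0.15. COX1 had 14488, 18836, 18571, 16452 and 13037 CPM in low-dose animals 48 to 52, so animal 49 lay at the lower edge of the vehicle range and the other 4 lay below it, animals 48 and 52 the furthest. In TPM the groups did not overlap for COX1 (11198 to 15689 against 16298 to 17203), the 1 transcript of the 6 of which this was so, beside 2.65% of all transcripts lower without overlap in TPM. For COX1 the interval of the log2 difference was -0.48 to -0.02, the unadjusted p was 0.036 and the edgeR adjusted p was 0.28. For ATP6 the interval was -0.25 to 0.15. Animal 52 had the lowest value of its group for all 6 transcripts, and animal 49 the highest for 5 of them and nearly the highest for ATP8.

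Of the 6, 0 were called by edgeR in this comparison, in which 0.897% of all transcripts were called, and 1 (COX1) had an unadjusted p under 0.05, beside 15.8% of all transcripts. DESeq2, in which 7.51% of all transcripts were called, and limma on log2 CPM (1.1%) and log2 TPM (1.17%) also called 0. The count of 0 moved in 1 of the 10 fits with 1 animal left out. Without low-dose animal 49, 3 were called (COX1 -0.31, COX3 -0.29 and CYTB -0.25), beside 10.5% of all transcripts in that fit, and without animal 52 the log2 fold changes of ATP8 and ATP6 were 0.0024 and 0.014.

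The 2 doses were also compared directly at 33 h, with the caution that this comparison shares its animals with those against vehicle. All 6 transcripts were lower after the high than after the low dose. COX1 was 28.8% lower (log2 difference -0.49, SE 0.11, edgeR adjusted p = 0.015) and COX3 24.2% lower (-0.40, SE 0.11, edgeR adjusted p = 0.027), and the groups did not overlap for these 2. COX2 differed by -0.36 (edgeR adjusted p = 0.021), CYTB by -0.35 (0.052), ATP8 by -0.30 (0.063) and ATP6 by -0.25 (0.086).

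Thus 6 of 6 were called lower, beside 28.7% of all transcripts called in either direction and 15.0% called lower. The 2 without overlap in CPM stand beside 7.75% of all transcripts that were lower without overlap. In TPM, 1 (COX3) did not overlap, beside 5.46% of all transcripts. The calls depended on the test: limma called 2 on log2 CPM and 0 on log2 TPM, beside 29.9% and 32.3% of all transcripts, and 3 passed at an adjusted p of 0.05, beside 3946 of the 19729 transcripts. When 1 animal was left out, edgeR called 3 without high-dose animal 54 or 55, 4 without low-dose animal 49, 50 or 51 or high-dose animal 56 or 57, 5 without low-dose animal 48 and 6 without low-dose animal 52 or high-dose animal 53. The call of ATP6 was lost in 8 and that of ATP8 in 7 of these 10 fits, in which 21.2% to 33.2% of all transcripts were called. The log2 differences stayed negative in all 10, from -0.32 to -0.21 for ATP6 and from -0.38 to -0.26 for ATP8.

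At 9 h after injection, both doses gave values below the vehicle mean, but the vehicle animals were spread widely. COX1 had 18894, 16583, 26622, 25737 and 21083 CPM in vehicle animals 31, 32, 58, 59 and 60. It had 19867, 18268, 16373, 20436 and 19422 CPM in low-dose animals 33 to 37 and 15362, 19950, 18111, 20848 and 16665 CPM in high-dose animals 38 to 42. Vehicle animals 58 to 60 stood above all treated animals, and vehicle animals 31 and 32 lay within the treated range.

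Animal 60 was not above all treated animals for COX2 (7497 CPM, with treated animals up to 8021), ATP6 (11466 CPM, up to 12759) and ATP8 (1206 CPM, up to 1281). CYTB had 12879 and 13260 CPM in vehicle animals 31 and 32 and 15664 to 20090 in vehicle animals 58 to 60. COX3 had 12774 and 12886 CPM in the first 2 and 14342 to 18342 CPM in the other 3. For ATP8, the first 2 had 1256 and 1185 CPM, and the other 3 had 1206 to 1655 CPM, so these ranges overlapped. The TMM factors were 0.979 and 0.988 in animals 31 and 32 and 0.819 to 0.966 in animals 58 to 60, and their part in the difference was not tested.

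After the low dose at 9 h, the log2 fold changes ran from -0.31 (ATP8) to -0.17 (COX2) with a median of -0.24. Of the 6, edgeR called 0, beside 23.1% of all transcripts. ATP8 had an unadjusted p of 0.035 and an edgeR adjusted p of 0.13, with 1162, 1281, 907, 1204 and 1027 CPM in the low-dose animals. It was the 1 member under an unadjusted 0.05, beside 31.2% of all transcripts. DESeq2 called 1 (ATP8), beside 27.6% of all transcripts, and limma called 0 on log2 CPM and log2 TPM, beside 24.2% and 20.8%.

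After the high dose at 9 h, the values ran from -0.31 to -0.16 with a median of -0.26. In edgeR, 3 of the 6 had an unadjusted p under 0.05, beside 37.4% of all transcripts. Of the 6, edgeR called 1, beside 32.8% of all transcripts called in either direction and 15.9% called lower. The called member was ATP8, which was 19.4% lower (log2 fold change -0.31, SE 0.12, edgeR adjusted p = 0.078) with 1015, 1047, 1237, 1208 and 1056 CPM in the high-dose animals. The highest of these lay between vehicle animals 60 and 31, so the groups overlapped. CYTB had the next largest difference (-0.31, SE 0.13, edgeR adjusted p = 0.12).

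These 9 h results depended on which vehicle animals were used. Against vehicle animals 58 to 60 alone, 3 of 6 were called after the low dose, beside 14.7% of all transcripts, and 4 of 6 after the high dose, beside 24.3%. Against animals 31 and 32 alone, 0 of 6 were called after either dose, but in these fits with 2 vehicle animals 0.228% and 0.634% of all transcripts were called, so the 0 says little. Against these 2 animals the log2 fold change of COX1 turned to 0.089 after the low and 0.034 after the high dose. The call of ATP8 after the high dose was lost without any one of vehicle animals 58 and 59 and high-dose animals 38, 39 and 42, and 3 or 4 of 6 were called without vehicle animal 31 or 32 or high-dose animal 41, beside 29.8%, 28.7% and 37.8% of all transcripts in these fits. After the low dose, 1 was called without vehicle animal 31 (CYTB, beside 20.2%) or low-dose animal 34 (ATP8, beside 25.3%).

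The 2 doses did not differ detectably from each other at 9 h. The log2 differences lay between -0.05 (COX1) and 0.01 (COX2). For COX1 the interval was -0.27 to 0.16, and for COX3, the most precise, it was -0.17 to 0.11. In this comparison edgeR called 0 of the 6 and 0.0% of all transcripts. None of the 6 and 638 of all transcripts had an unadjusted p under 0.05. DESeq2 called 0 of the 6 and 14 transcripts in all. Limma called 0 of the 6 on either scale, with 0 transcripts called in all on log2 CPM and 1 on log2 TPM.

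Between the 2 vehicle groups, all 6 transcripts were lower at 33 h than at 9 h in the estimate, by -0.35 (ATP8) to -0.16 (COX3) on the log2 scale. Of the 6, edgeR called 0, beside 0.0% of all transcripts, with 1 of the 6 and 2311 of all under an unadjusted p of 0.05. The 1 of the 6 was ATP8 (edgeR adjusted p = 0.27), which was also the 1 without overlap between the groups in CPM, beside 1.46% of all transcripts. Its range was 947 to 1153 CPM at 33 h and 1185 to 1655 CPM at 9 h. In TPM the 2 vehicle groups overlapped for ATP8. The lower estimates at 33 h came with animals 58 to 60: the mean CPM of animals 31 and 32 was below that of the 33 h vehicle animals for 5 of the 6, for example 17738 against 19211 for COX1, and above it for ATP8 (1221 against 1083). DESeq2 called 1 of the 6, beside 2.96% of all transcripts, and limma 0 on log2 CPM and log2 TPM, beside 0.0405% and 0.0253%.

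The change of each dose effect with time was taken from a model of 4 groups. For the low dose, the differences between the 33 h and the 9 h effect ran from -0.04 (COX1) to 0.23 (ATP8). None of the 6 was called, beside 5.22% of all transcripts in edgeR, 8.59% in DESeq2, and 4.88% and 5.82% in limma on log2 CPM and log2 TPM. None had an unadjusted p under 0.05, beside 17.4% of all transcripts. For the high dose, 1 of 6 was called, beside 20.5% of all transcripts in either direction and 10.3% lower. It was COX1, whose log2 fold change was -0.26 at 9 h and -0.73 at 33 h, a difference of -0.47 (SE 0.16, interval -0.80 to -0.14, edgeR adjusted p = 0.051).

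COX3 and COX2 had a difference of -0.33 each (edgeR adjusted p = 0.11 and 0.12). CYTB was not called, and its difference ran from -0.27 to -0.11 in the 20 fits with 1 animal left out. ATP8 had a high-dose effect of -0.31 at 9 h and -0.37 at 33 h, a difference of -0.06 (interval -0.35 to 0.23), and ATP6 one of -0.25 and -0.30, a difference of -0.05 (interval -0.39 to 0.29). With vehicle animals 58 to 60 as the only 9 h vehicle animals, 0 of the 6 were called, beside 15.8% of all transcripts, and with animals 31 and 32 alone 4 were called, beside 16.3%. At an adjusted p of 0.05, and in limma on log2 CPM, none was called, beside 14.5% and 20.3% of all transcripts. Leaving out high-dose animal 38 (9 h), high-dose animal 57 (33 h) or vehicle animal 59 gave 2 calls, beside 18.5%, 19.8% and 19.8% of all transcripts, and leaving out vehicle animal 58 gave 3, beside 18.1%. Of the 7 complex I transcripts, 1 was called after each dose at 9 h, beside 23.1% (low) and 32.8% (high) of all transcripts. After the low dose at 33 h 0 were called, beside 0.897%. Between the doses at 33 h 5 were called, beside 28.7%, and in the change of the high-dose effect with time 2, beside 20.5%. The calls among the 7 were all lower.

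Ranked by mean CPM, the 9 h vehicle group was the highest and the 33 h high-dose group the lowest for each of the 6 transcripts, and the 33 h low-dose group was second lowest. For ATP8, animals 31 and 32 alone (1221 CPM) were also above the mean of every other group. For the other 5 the place of the 9 h vehicle group rested on animals 58 to 60, as animals 31 and 32 averaged less than the 33 h vehicle group. For COX1 they averaged 17738 CPM, below the means of the 33 h vehicle (19211), 9 h low-dose (18873) and 9 h high-dose (18187) groups. Neighbours in the order of the groups overlapped in range for all 6, with 1 exception: the low-dose and high-dose groups at 33 h did not overlap for COX1 and COX3.

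ATP8 and ATP6 lie on one messenger RNA, so their ratio was tested on its own in each dose comparison. In TPM, ATP8 stood at 0.789 ± 0.0254 times the level of ATP6 in the 33 h vehicle animals, 0.761 ± 0.0237 in the high-dose and 0.803 ± 0.0402 in the low-dose animals at 33 h (SD, n = 5). At 9 h the ratio was 0.854 ± 0.0615 in the vehicle, 0.779 ± 0.0380 in the low-dose and 0.839 ± 0.0740 in the high-dose animals. Each of the 4 treated groups overlapped with its vehicle group.

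The largest difference in the log2 ratio was that of the low dose at 9 h, at -0.13 (two-sided exact permutation test, p = 0.0556, adjusted over 4 tests 0.222). For the high dose at 33 h it was -0.05 (exact p = 0.127, adjusted 0.254), while the other 2 differences were -0.03 and 0.02 (exact p = 0.698 and 0.556, adjusted 0.698 for both). With 5 animals against 5 the smallest p this test can give is 0.0079. In estimated counts, the log2 difference for the high dose at 33 h was -0.07 (exact p = 0.0397, adjusted 0.159), and for the other 3 comparisons the adjusted p was 0.333 to 0.484. Without the length correction, ATP8 had 0.0962 to 0.111 times the count of ATP6 on average in a group.

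**Figure D5:**
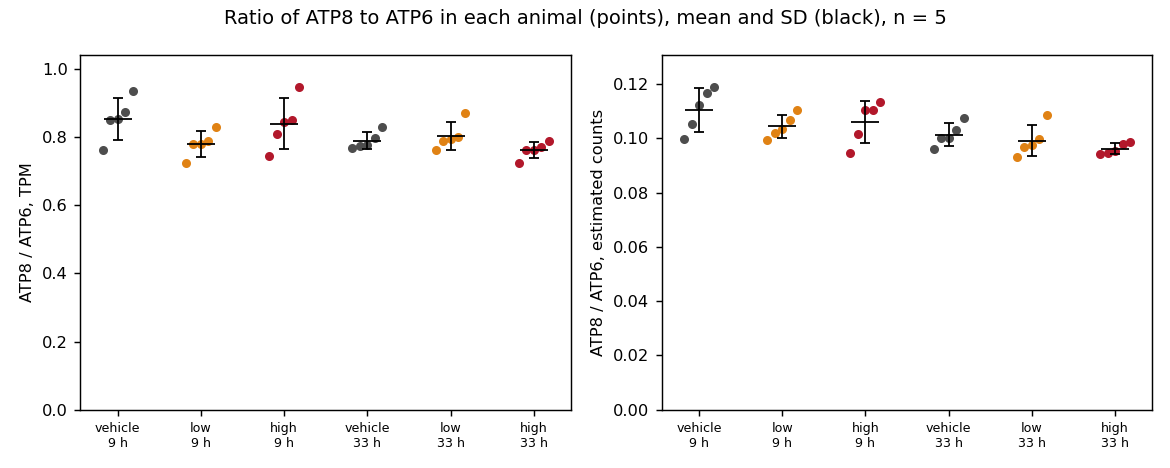
Ratio of ATP8 to ATP6 in each animal of the 6 groups (horizontal axis), in TPM (left) and in estimated counts (right), on axes from 0. Points are animals, and black marks are the mean and SD of 5 animals. The group means lie between 0.761 and 0.854 in TPM, and the treated groups overlap with their vehicle groups.

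The transcripts whose levels followed the 6 most closely across the 30 animals were looked for among 6118 transcripts of sufficient level, by Pearson's r of log2 CPM with the mean of the 6, as a description only. Outside the mitochondrial 13 these were ENSCPOT00000047271.1 (r = 0.893), ENSCPOT00000047455.1 (r = 0.889) and ENSCPOT00000047760.1 (r = 0.876), for which no gene name was at hand. The points share libraries, scaling and groups, so these values carry no test. ENSCPOT00000047760.1 had the widest span of group means, from 555 ± 190 CPM in the 9 h vehicle animals to 129 ± 24.4 CPM in the 33 h high-dose animals (SD, n = 5). ENSCPOT00000047271.1 went from 284 ± 29.6 to 208 ± 9.25 CPM and ENSCPOT00000047455.1 from 251 ± 17.1 to 168 ± 4.91 CPM between the same groups.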

How the data were processed

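Poly-A-enriched, strand-marked libraries from whole-kidney RNA of 30 animals were sequenced as paired reads. The authors pseudo-aligned the reads to an Ensembl guinea pig transcriptome with kallisto (version 0.42.4 in the submitters' processing notes), and the Ensembl release was not given in the sources used here. The deposited tables hold, for each transcript, its length and effective length, an estimated count and a TPM value, per the file headers. The authors tested with Sleuth at a q-value below 0.1. The resampled estimates it needs were not used here. Reads that fit several transcripts are split between them by kallisto, so ATP8 and ATP6, which overlap, and any nuclear copy of a mitochondrial gene are uncertain.

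The estimated counts, rounded to integers, were filtered with filterByExpr over all 30 animals, which left 19729 of 25824. Each comparison was fitted over all of these with edgeR 4.0.16 (R 4.3.3), using TMM factors and the quasi-likelihood test on the compared groups only, with Benjamini-Hochberg adjustment and calls at an adjusted p of at most 0.1. Fold changes come from the fit of the compared groups, and CPM values use TMM factors over all 30 animals. The ATP8 to ATP6 ratio was compared by exact permutation. Alternatives were DESeq2 1.42.0, limma 3.58.1 on log2 CPM (prior count 0.5) and log2(TPM + 0.5), other scalings, no filter, all 30 animals in one fit, parts of the 9 h vehicle group and each animal left out. Their values for single transcripts between the doses at 33 h and in the change of the high-dose effect with time were added after seeing the data. Fold changes on the log2(TPM + 0.5) scale understate those of low transcripts. Scripts were tested on simulated data.

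The named transcripts are the 6 members, the 7 other mitochondrial ones as counts, and the 3 outside these that had the highest Pearson's r with the mean of the 6, among those whose log2 CPM averaged 5 or more. The members and lists were chosen with earlier results of these data known. Animals are named by the number in their label. They are separate animals, so p-values set the difference between groups against the spread between animals. No sequence is shown, and in vitro samples were not analysed here.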

Additional observations from a re-analysis of the deposited data

Results flagged for a closer look

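In 3 cases 1 animal stood apart from the other 4 of its group by Dixon's test at the 95% level, among 42 sets of 5 animals checked, where chance gives about 1 in 20, or 2.1. For ATP8, low-dose animal 52 at 33 h had 791 CPM and the nearest animal 1060. High-dose animal 53 at 33 h had 974 CPM for ATP8, where the nearest animal had 829, and 10216 CPM for ATP6, where the nearest had 8565. Animal 53 was the animal that overlapped with the vehicle group, and ATP8 and ATP6 share a messenger RNA, so these 2 are not independent. For COX1, the effect of the high dose differed between 33 and 9 h by -0.47 on the log2 scale (edgeR interaction term, adjusted p = 0.051).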

How the results depend on the processing

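For the high dose at 33 h, edgeR (49.2% of all transcripts called), DESeq2 (50.3%) and limma on log2 CPM (50.0%) called all 6 transcripts lower. So did every other scaling (49.2% to 50.0%), the fit without a filter (40.9%) and each of the 10 fits with 1 animal left out (46.0% to 48.2%). Limma on log2 TPM called 5 (48.3%). Calls elsewhere moved, given with the share of all transcripts called under the same setting. For the low dose at 9 h (0 called), DESeq2 called 1 (27.6%), the fit of all 30 animals 3 (27.7%) and vehicle animals 58 to 60 alone 3 (14.7%). Leaving out 1 animal gave 0 to 1 (13.9% to 28.7%). For the high dose at 9 h (1 called), 0 were called at an adjusted p of 0.05 (23.0%), with library totals (32.4%) and in limma on log2 TPM (28.6%). Vehicle animals 31 and 32 alone also gave 0 (0.634%), and animals 58 to 60 gave 4 (24.3%). DESeq2 called 3 (36.3%) and the fit of all 30 called 5 (38.8%). Leaving out 1 animal gave 0 to 4 (22.7% to 37.8%). Between doses at 33 h (6 called), 3 were called at an adjusted p of 0.05 (3946 of 19729), 2 in limma on log2 CPM (29.9%) and 0 on log2 TPM (32.3%). Leaving out 1 animal gave 3 to 6 (21.2% to 33.2%). For the low dose at 33 h (0 called), leaving out animal 49 gave 3 (10.5%), and leaving out any other animal gave 0 (0.0558% to 0.593%). Between vehicle groups (0 called), DESeq2 called 1 (2.96%) and animals 58 to 60 gave 2 (3.09%). For the change of the high-dose effect with time (1 called), 0 were called at 0.05 (14.5%), in limma on log2 CPM (20.3%) and with animals 58 to 60 (15.8%). Library totals (17.1%) and DESeq2 (22.7%) each gave 3, and animals 31 and 32 gave 4 (16.3%). Leaving out 1 animal gave 1 to 3 (17.5% to 22.2%). The causes were not tested.

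Against vehicle animals 31 and 32 alone the log2 fold change turned positive for COX1 (0.089), COX2 (0.046), COX3 (0.0065) and CYTB (0.021) after the low dose and for COX1 (0.034) and COX2 (0.053) after the high dose at 9 h. With animals 58 to 60 alone the change of the high-dose effect with time turned to 0.056 for ATP8 and 0.10 for ATP6, and with 1 animal left out ATP6 ran from -0.14 to 0.033. For the low dose at 33 h, ATP8 ran from -0.12 to 0.0024 and ATP6 from -0.094 to 0.014 with 1 animal left out. The ATP8 to ATP6 ratio for the low dose at 33 h was -0.032 in counts, and with 1 animal left out it ran from -0.0046 to 0.043 in TPM, as the high dose at 9 h did from -0.072 to 0.016. Library totals moved the median of all transcripts to 0.13 (low dose) and 0.14 (high dose) at 9 h, and lower calls from 49.2% to 20.4% and from 48.5% to 26.3% of all calls. At 33 h they moved from 49.0% to 34.7% for the high dose. No paired analysis was possible because animal numbers were not shared between groups.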
